A study of Mus musculus with 2 samples.

Results

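Heat shock proteins and their DnaJ, BAG and heat shock factor partners were described across the cell classes of the mouse brain. A gene belonged to the group when its symbol began with Hspa, Hspb, Hspd, Hspe or Hsph, began with Dnaja, Dnajb or Dnajc followed by a digit, or was Hsf1, Hsf2 or one of Bag1 to Bag6, when it was not a pseudogene, and when it had at least 50 UMIs (unique molecular identifiers, each a counted RNA molecule) over both libraries. Of 80 matching symbols, 0 were pseudogenes and 6 had under 50 UMIs, which left 74 members of the 26033 genes listed. Dnajb7 lay just inside the limit with 67 UMIs, and Hspa1l lay just outside it with 47. Grouped by symbol, the members comprised 12 Hspa genes (Hsp70), 1 Hsph gene (Hsp110), 6 small heat shock proteins, 3 chaperonin genes, 2 heat shock factors, 4 DNAJA, 12 DNAJB and 26 DNAJC co-chaperones, 6 BAG genes and 2 Hsp-binding proteins (Hspbp1 and Hspbap1). The Hspa genes so counted include Hspa4l, which is of the Hsp110 kind. The Hsp90 genes lie outside this naming rule.

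Hsp70 proteins bind exposed hydrophobic stretches of unfolded proteins in a cycle driven by ATP. DnaJ proteins, also called Hsp40, deliver substrates and trigger ATP hydrolysis by Hsp70, while BAG proteins and Hsp110 release the nucleotide and so reset the cycle. Small heat shock proteins hold aggregating proteins without ATP, and the Hspd1 and Hspe1 products form the folding chamber of mitochondria. Heat and other stresses activate the transcription factor HSF1, which binds repeats of the letters GAA in promoters of inducible chaperone genes, whereas unfolded protein in the endoplasmic reticulum (ER) induces Hspa5 and Dnajc3 through ER stress elements.

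The study compared adult mice of genotype Mrc1Cre:Csf1rfl/fl, called mutant here, with Csf1rfl/fl mice, called control. Cre in the mutant is driven by Mrc1, the mannose receptor gene of border-associated macrophages (BAMs), and was meant for deletion of Csf1r, the receptor of the macrophage growth factors CSF1 and IL-34. Both groups carry the loxP-flanked Csf1r alleles. Each genotype is 1 library of cells sorted from whole brain. The sort took microglia and BAMs by CD11b and F4/80, astrocytes by ACSA-2, endothelium by CD31, and O4-negative mural cells and fibroblasts by CD13 or CD140a, and the number of pooled animals is not given in the sources used here. With 1 library per genotype there is no replicate check and no test, so every interval below covers counting error only.

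The mutant library held 8735 barcodes with 82806348 UMIs, and the control library 8739 barcodes with 85716531 UMIs. The 2 libraries shared 17 barcode sequences. Cells were assigned to classes by marker genes, and class names carry "-like" for that reason. Microglia-like cells numbered 3689 in the mutant and 3431 in the control, BAM-like cells 95 and 255, endothelial-like cells 154 and 115, fibroblast-like cells 160 and 71, and astrocyte-like cells 223 and 631, each with the mutant count given before the control count. Choroid plexus epithelium-like cells numbered 969 in the mutant and 563 in the control. Ependymal-like cells (85 in the mutant, 41 in the control) and oligodendrocyte-like cells (15 in the mutant, 45 in the control) were too few for a genotype comparison and give levels only. Choroid plexus epithelium and ependyma are not among the sorted types named in the labels. Gated mural cells were almost missing, with 8 pericyte-like cells in the mutant and 11 in the control, and 0 smooth muscle-like cells in either. Csf1r was counted at 1183 CPM (UMI counts scaled to 1000000 per class and library) in mutant and 1414 CPM in control BAM-like cells, and at 1842 CPM in mutant and 2327 CPM in control microglia-like cells. Counts from the 3′ end of the transcript do not show whether an upstream exon was deleted.

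The cytosolic Hsp70 Hspa8 and the ER Hsp70 Hspa5 (also BiP) had the highest levels of the group in microglia-like cells. The 5 leading members there were Hspa5 at 603 CPM in the mutant and 584 in the control, Hspa8 at 551 and 562, Dnajc3 at 189 and 185, Dnajc7 at 189 and 181, and Dnajc1 at 174 and 166, again mutant before control. UMIs are counted once per molecule at its 3′ end, so these levels are not scaled by gene length. Hspa8 reached 1158 CPM in mutant and 1165 CPM in control choroid plexus epithelium-like cells, and 1347 CPM in mutant and 1463 CPM in control ependymal-like cells. Hspa5 had 1013 CPM in mutant and 1003 CPM in control choroid plexus epithelium-like cells, 919 CPM in mutant and 880.1 CPM in control fibroblast-like cells, and 244 CPM in mutant and 265 CPM in control endothelial-like cells. Endothelial-like and astrocyte-like cells were thus the compared classes with the lowest Hspa5 level, astrocyte-like cells holding 324 CPM in the mutant and 318 CPM in the control. Hspa9, the mitochondrial Hsp70 mortalin, lay between 54.2 CPM (mutant BAM-like cells) and 154 CPM (control choroid plexus epithelium-like cells) over the 6 compared classes.

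**Figure D1:**
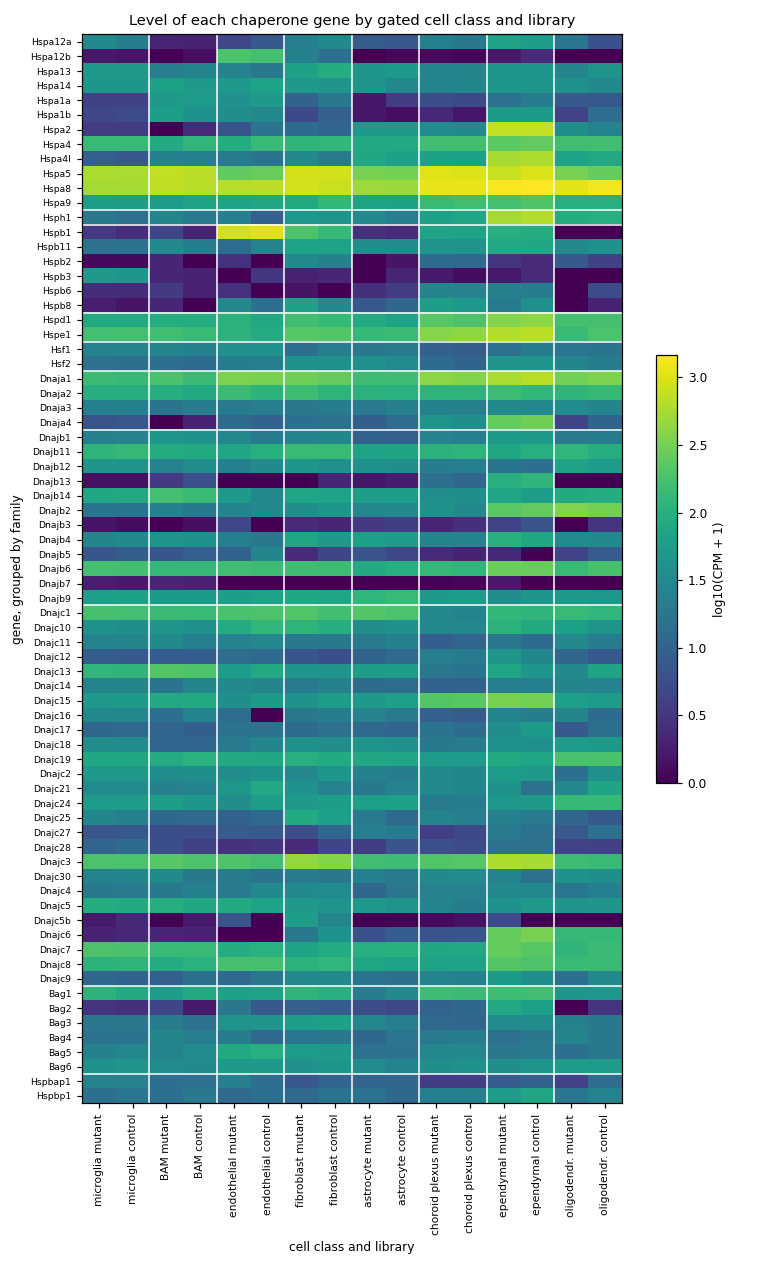
Level of 73 of the 74 members, log10 of CPM plus 1, in 8 gated cell classes of the mutant and the control library. Rows are grouped by family and columns by class, with the mutant left of the control. Hspa8 and Hspa5 are bright in every column, and paired columns of a class look alike, while Hspb1, Hspa12b, Hspb3, Hspa2 and Dnajc5b are bright in few classes.

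Hspa5 and Dnajc3 were the 2 members with an ER stress element, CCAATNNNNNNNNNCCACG on either strand, among the 60 members in RefSeq's promoter table of GRCm38.p6 (250 bases before to 50 after a start site). That motif was in 0.119% of all 32851 promoters of the same length. The 2 sites are shown because these genes encode an ER chaperone and the ER-resident co-chaperone p58IPK that binds it, with the fixed letters of the motif in capitals. The Hspa5 site lies at chr2:34772025-34772043 on the plus strand, 65 to 47 bases before the start site, and the Dnajc3 site at chr14:118937827-118937845 on the plus strand, 105 to 87 bases before it.
Hspa5: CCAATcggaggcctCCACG
Dnajc3: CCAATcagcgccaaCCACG
Dnajc3 had 592 CPM in mutant and 566 CPM in control ependymal-like cells, 449 CPM in mutant and 374 CPM in control fibroblast-like cells, and 189 CPM in mutant and 185 CPM in control microglia-like cells. Both genes were therefore above the microglia-like level in fibroblast-like cells, but they parted in choroid plexus epithelium-like cells, where Hspa5 was at its highest and Dnajc3 stood at 203 CPM in the mutant and 214 CPM in the control.

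Hspa1a and Hspa1b, the strictly inducible cytosolic Hsp70 pair, were highest among the compared classes in BAM-like cells. Hspa1a had 49.4 CPM (95% Poisson interval 35.4 to 67.0) in mutant and 53.0 CPM (44.9 to 62.2) in control BAM-like cells, against 3.22 and 3.14 CPM in microglia-like cells of the mutant and the control. Hspa1b had 56.6 CPM (41.6 to 75.3) in mutant and 40.0 CPM (33.0 to 48.1) in control BAM-like cells, against 3.71 CPM in mutant and 4.35 CPM in control microglia-like cells. The difference between the 2 macrophage classes was 15.3-fold in the mutant and 16.9-fold in the control for Hspa1a, and 15.3-fold in the mutant and 9.20-fold in the control for Hspa1b. Either gene was detected in 35 of 95 mutant BAM-like cells (36.8%, exact binomial 95% interval 27.2 to 47.4) and 86 of 255 control BAM-like cells (33.7%, 27.9 to 39.9), against 128 of 3689 mutant (3.47%) and 174 of 3431 control microglia-like cells (5.07%). Median depth differed little between these classes, at 7827 UMIs per cell in mutant and 7533 in control BAM-like cells and 8105 in mutant and 8262 in control microglia-like cells. After each cell was thinned to 2000 UMIs, the shares were 20.2% of mutant and 14.7% of control BAM-like cells, against 1.18% of mutant and 1.34% of control microglia-like cells. In astrocyte-like cells, with median depths of 6946 UMIs in the mutant and 8246 UMIs in the control, 0.897% of mutant and 2.85% of control cells had such a UMI. Ependymal-like cells, outside the compared classes, had 52.2 CPM of Hspa1b in the mutant and 52.6 CPM in the control. Endothelial-like cells also had both genes, with Hspa1a at 39.1 CPM in the mutant and 50.4 CPM in the control, but single cells carried much of it: 1 cell held 33.3% of the Hspa1a UMIs of the mutant class and 1 cell 39.1% of those of the control class.

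The 2 genes stand side by side on chromosome 17, and the 150 bases before their start sites are shown because they are near copies, 149 of 150 bases being identical. Capitals mark a pair of GAA units in opposite orientation, GAANNTTC, which HSF1 sites are built from. Both are on the minus strand of GRCm38.p6 and are written 5′ to 3′ from RefSeq, Hspa1a at chr17:34972157-34972306 and Hspa1b at chr17:34959239-34959388.
Hspa1a: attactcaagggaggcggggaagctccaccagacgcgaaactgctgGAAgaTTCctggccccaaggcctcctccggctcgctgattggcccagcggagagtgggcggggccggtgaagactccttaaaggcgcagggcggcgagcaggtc
Hspa1b: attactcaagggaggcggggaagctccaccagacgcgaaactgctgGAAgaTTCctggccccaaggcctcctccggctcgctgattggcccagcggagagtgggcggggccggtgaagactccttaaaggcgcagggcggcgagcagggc
The last 500 bases of the 2 transcripts, where the reads fall, shared 0 of 411 windows of 90 bases, so reads of this length tell the genes apart. A GAANNTTC pair was in 14 of the 60 members with a promoter entry (23.3%), against 9.04% of all genes in the table. The opposite arrangement of the 2 units, TTCNNGAA, was in 6 of the 60 members (10%), against 9.60% of all genes. The longer heat shock element GAANNTTCNNGAA, on either strand, was in Dnajb6, Hspd1, Hspe1 and Hsph1, against 0.662% of all genes. Each of these longer elements also holds a GAANNTTC pair.

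**Figure D2:**
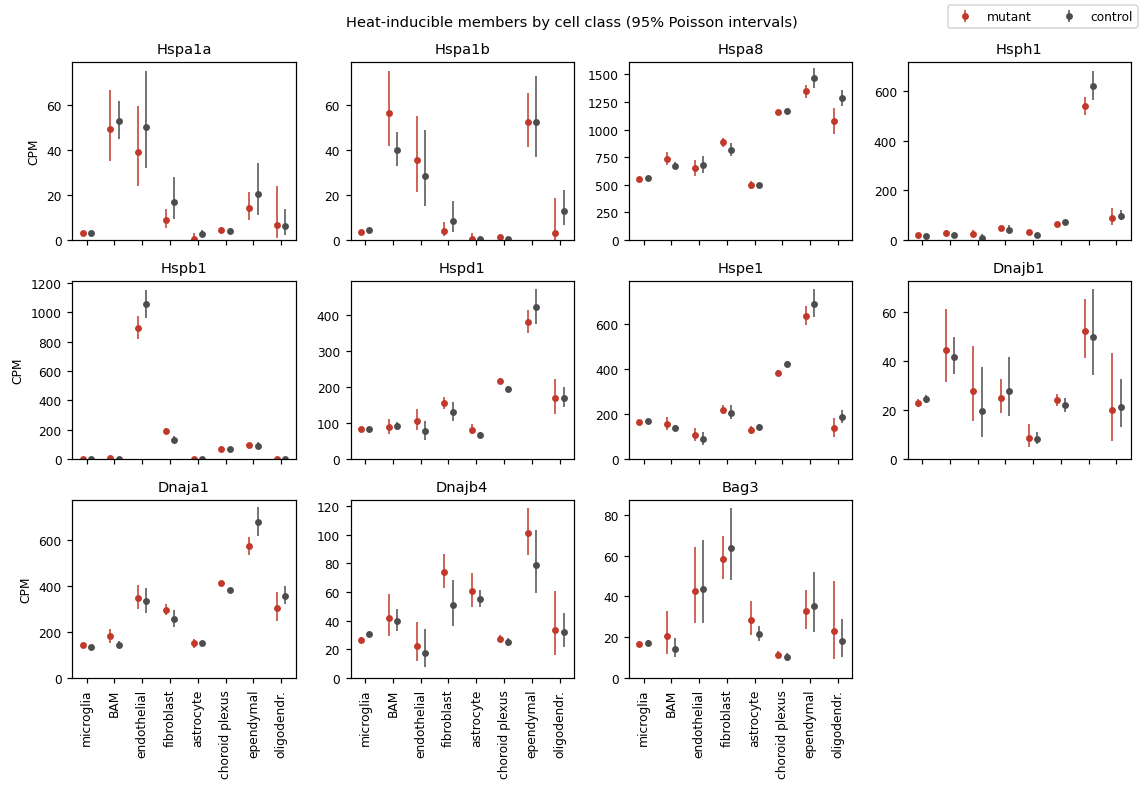
Level in CPM of the 11 heat-inducible members by cell class, mutant left of control, with exact 95% Poisson intervals and a scale of its own in each panel. Hspa1a is high in BAM-like and endothelial-like cells, Hspa1b in BAM-like, endothelial-like and ependymal-like cells, Hsph1, Hspd1, Hspe1 and Dnaja1 in ependymal-like cells, and Hspb1 in endothelial-like cells.

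Hspa2, an Hsp70 best known from male germ cells, was an ependymal and astrocytic member here. Ependymal-like cells held 749.7 CPM in the mutant and 754 CPM in the control, astrocyte-like cells 49.0 CPM in the mutant and 50.6 CPM in the control, and microglia-like cells 2.70 CPM in the mutant and 2.67 CPM in the control. Hspa4l, of the Hsp110 kind, followed the same order, with 565 CPM in mutant and 601 CPM in control ependymal-like cells, 77.0 CPM in mutant and 64.5 CPM in control astrocyte-like cells, and 8.44 CPM in mutant and 6.43 CPM in control microglia-like cells. Hspa4l was also above microglia-like cells in BAM-like cells, at 22.9 CPM in the mutant and 22.1 CPM in the control. Hsph1, the inducible Hsp110 and a nucleotide exchange factor of Hsp70, reached 541 CPM in mutant and 623 CPM in control ependymal-like cells, against 18.3 CPM in mutant and 14.2 CPM in control microglia-like cells. Hsph1 was detected in 84 of 85 mutant and 41 of 41 control ependymal-like cells, so the level did not come from a few cells.

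The divergent Hsp70 relatives Hspa12a and Hspa12b split between classes. Hspa12b, known from endothelium, had 184 CPM (149.7 to 224) in mutant and 166 CPM (131 to 208) in control endothelial-like cells, and 0.613 CPM in mutant and 0.497 CPM in control microglia-like cells. Fibroblast-like cells came next with 23.1 CPM in the mutant and 13.2 CPM in the control. Hspa12a was lower in 3 classes than in microglia-like cells, which held 29.8 CPM in the mutant and 20.8 CPM in the control. Its levels were 1.20 and 1.05 CPM in BAM-like, 3.72 and 6.57 CPM in endothelial-like, and 7.58 and 6.16 CPM in astrocyte-like cells of the mutant and the control.

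Among the small heat shock proteins, Hspb1 (also Hsp25 or Hsp27, an actin-associated holdase) was the endothelial member. It stood at 893 CPM (815 to 977) in mutant and 1055 CPM (963 to 1154) in control endothelial-like cells, 189 CPM in mutant and 132 CPM in control fibroblast-like cells, 70.0 CPM in mutant and 68.0 CPM in control choroid plexus epithelium-like cells, and 2.33 CPM in mutant and 1.62 CPM in control microglia-like cells. Hspb1 was detected in 58.4% of mutant and 65.2% of control endothelial-like cells, which had median depths of 3219.5 UMIs in the mutant and 3799 UMIs in the control, and in 1.38% of mutant and 1.19% of control microglia-like cells, which were deeper. The 150 bases before its start site, at chr5:135887769-135887918 on the plus strand, hold 2 GAANNTTC pairs, in capitals.
Hspb1: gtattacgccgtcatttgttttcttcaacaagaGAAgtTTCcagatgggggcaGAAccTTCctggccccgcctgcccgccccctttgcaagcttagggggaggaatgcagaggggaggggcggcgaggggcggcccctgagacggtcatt
The GAANNTTC letters were also before Hspa1a and Hspa1b, and in 9.04% of all genes. BAM-like cells, the leading compared class for Hspa1a and Hspa1b, held 3.61 CPM of Hspb1 in the mutant and 1.05 CPM in the control. The part of the GAANNTTC letters in these levels was not tested.

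Hspb3, a small heat shock protein described in muscle, was the member that stood furthest below microglia-like cells in each of the 5 other compared classes. Microglia-like cells held 49.3 CPM (46.9 to 51.8) in the mutant and 45.4 CPM (43.1 to 47.8) in the control. In the other classes compared it lay between 0 CPM (mutant endothelial-like and astrocyte-like cells) and 2.19 CPM (control endothelial-like cells). BAM-like cells, the nearest relatives of microglia in the series, held 1.20 CPM in the mutant and 1.05 CPM in the control, which are 1 UMI-bearing cell of 95 and 3 of 255. Hspb3 was detected in 29.7% of mutant and 28.7% of control microglia-like cells. Microglial genes as a group were present in BAM-like cells at 2092 CPM in the mutant and 1899 CPM in the control over 8 markers, against 17314 CPM in the mutant and 19106 CPM in the control in microglia-like cells.

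Hspb2, a muscle small heat shock protein, was highest among the compared classes in fibroblast-like cells, whereas Hspb8, a partner of Bag3 in selective autophagy, was highest there in the mutant and in choroid plexus epithelium-like cells in the control. Hspb8 had 62.9 CPM in mutant and 31.3 CPM in control fibroblast-like cells, 57.6 CPM in mutant and 48.1 CPM in control choroid plexus epithelium-like cells, 27.9 CPM in mutant and 13.1 CPM in control endothelial-like cells, and 0.828 CPM in mutant and 0.466 CPM in control microglia-like cells. Hspb2 had 31.5 CPM in mutant and 22.9 CPM in control fibroblast-like cells, against 0.215 CPM in mutant and 0.218 CPM in control microglia-like cells, and its gene overlaps Cryab on the opposite strand. Hspb6, known from smooth and cardiac muscle, was a choroid plexus epithelium-like member at 26.2 CPM in the mutant and 24.5 CPM in the control, against 1.63 CPM in mutant and 1.55 CPM in control microglia-like cells.

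**Figure D3:**
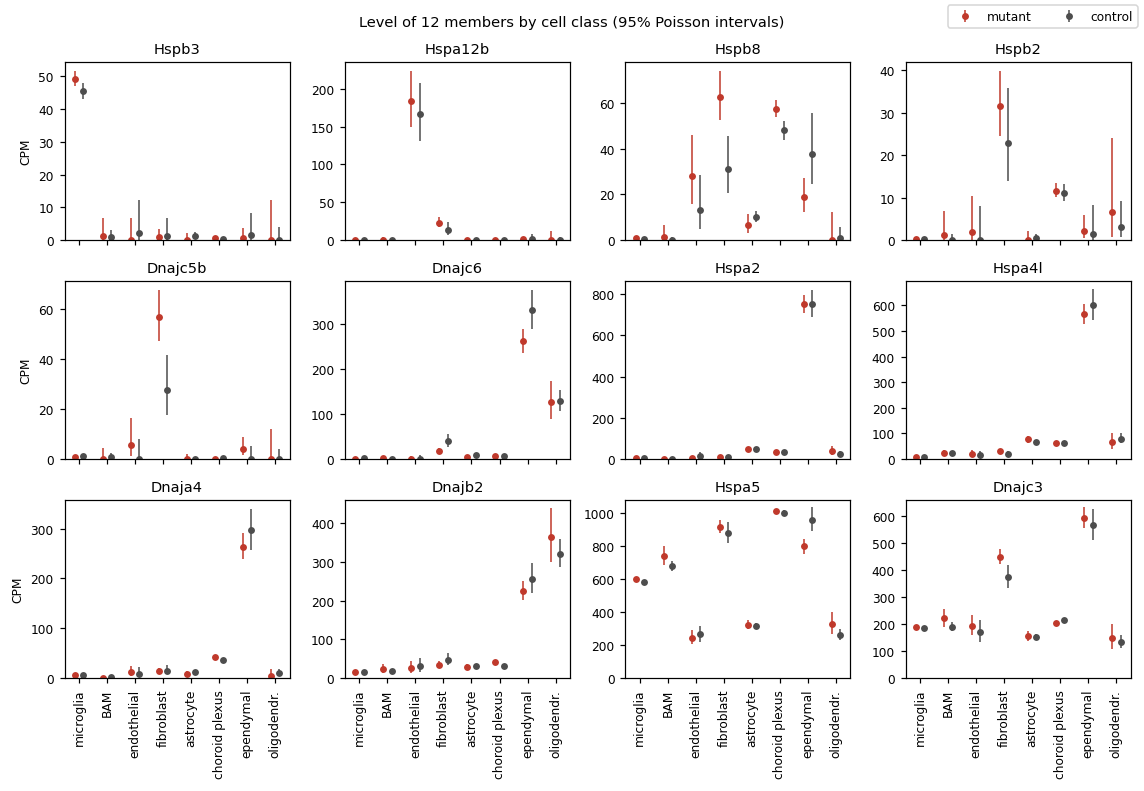
Level in CPM of 12 members by cell class, mutant left of control, with exact 95% Poisson intervals and a scale of its own in each panel. Hspb3 stands out in microglia-like, Hspa12b in endothelial-like, Hspb2 and Dnajc5b in fibroblast-like, Hspa2, Hspa4l, Dnaja4 and Dnajc6 in ependymal-like, and Dnajb2 in oligodendrocyte-like and ependymal-like cells.

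The mitochondrial chaperonins Hspd1 (Hsp60) and Hspe1 (Hsp10) lie head to head on chromosome 1 and had the same order of classes at the top. Hspd1 had 381 CPM in mutant and 421 CPM in control ependymal-like cells, 217 CPM in mutant and 193 CPM in control choroid plexus epithelium-like cells, and 81.8 CPM in mutant and 82.6 CPM in control microglia-like cells. Hspe1 had 637 CPM in mutant and 691 CPM in control ependymal-like cells, 384 CPM in mutant and 422 CPM in control choroid plexus epithelium-like cells, and 164 CPM in mutant and 168 CPM in control microglia-like cells. By their RefSeq start sites, 2 overlapping heat shock elements lie between them, shown because the promoter windows of both genes hold them, at chr1:55088059-55088076 and 89 to 72 bases before the Hspe1 start on the plus strand, with the fixed letters in capitals. In GENCODE M21 the genes overlap at these ends and the elements fall inside Hspd1, whose annotated end is at base 55088243.
Hspe1 and Hspd1: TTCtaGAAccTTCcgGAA
The transcription factor Hsf1 had 39.1 CPM in mutant and 41.6 CPM in control endothelial-like cells, 24.2 CPM in mutant and 25.6 CPM in control microglia-like cells, and 8.26 CPM in mutant and 7.66 CPM in control choroid plexus epithelium-like cells.

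The DnaJ co-chaperones divided into broadly present and restricted genes. Dnaja1, the major cytosolic DNAJA, had 572 CPM in mutant and 677 CPM in control ependymal-like cells, 410.1 CPM in mutant and 381 CPM in control choroid plexus epithelium-like cells, 348 CPM in mutant and 335 CPM in control endothelial-like cells, and 143 CPM in mutant and 132 CPM in control microglia-like cells. Dnajb1, the inducible Hsp40, stood at lower levels, from 8.75 CPM in mutant and 8.27 CPM in control astrocyte-like cells to 44.6 CPM in mutant and 41.8 CPM in control BAM-like cells, against 22.8 CPM in mutant and 24.5 CPM in control microglia-like cells. Dnajb4 had 74.0 CPM in mutant and 50.6 CPM in control fibroblast-like cells, and 60.6 CPM in mutant and 55.1 CPM in control astrocyte-like cells, against 26.6 CPM in mutant and 30.4 CPM in control microglia-like cells. BAM-like cells, which led for Dnajb1, were thus not the leading class for Dnajb4.

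Dnaja4, Dnajb13 and Dnajc6 were highest in ependymal-like cells and Dnajb2 in oligodendrocyte-like cells. Dnaja4 had 264 CPM in mutant and 297 CPM in control ependymal-like cells, against 5.64 CPM in mutant and 6.19 CPM in control microglia-like cells. Dnajb13, a component of motile cilia, had 97.1 CPM in mutant and 115 CPM in control ependymal-like cells and 13.7 CPM in mutant and 10.1 CPM in control choroid plexus epithelium-like cells, with its gene overlapping Ucp2 on the opposite strand. Dnajc6 (auxilin, which uncoats clathrin vesicles with Hsc70) had 262 CPM in mutant and 330.3 CPM in control ependymal-like cells and 126 CPM in mutant and 128 CPM in control oligodendrocyte-like cells, against 1.04 CPM in mutant and 1.31 CPM in control microglia-like cells. Dnajb2, a ubiquitin-binding co-chaperone, was the oligodendrocyte-like member at 364 CPM in the mutant and 322 CPM in the control, over 225 CPM in mutant and 256 CPM in control ependymal-like cells.

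Dnajc13 was higher in BAM-like cells than in microglia-like cells and lower in fibroblast-like, astrocyte-like and choroid plexus epithelium-like cells. This endosomal protein had 209.6 CPM in mutant and 194 CPM in control BAM-like cells and 121 CPM in mutant and 116 CPM in control microglia-like cells, but 45.8 CPM in mutant and 42.1 CPM in control fibroblast-like cells and 17.2 CPM in mutant and 15.8 CPM in control choroid plexus epithelium-like cells. Dnajb14, an ER membrane co-chaperone, had 166 CPM in mutant and 140.1 CPM in control BAM-like cells, against 76.4 CPM in mutant and 79.8 CPM in control microglia-like cells. Dnajc18 was lower in BAM-like cells, at 9.64 CPM in the mutant and 9.83 CPM in the control, against 35 CPM in mutant and 33.3 CPM in control microglia-like cells. Dnajc27 was the third member by fold in astrocyte-like cells, at 21.6 CPM in the mutant and 19.3 CPM in the control, against 5.83 CPM in mutant and 6.50 CPM in control microglia-like cells. Dnajc16 had 13 CPM in mutant endothelial-like cells and 0 UMIs in the control class, whose upper 95% bound was 8.08 CPM, against 29.8 CPM in mutant and 29.3 CPM in control microglia-like cells. Hspbap1, an Hspb1-associated protein, was lower than in microglia-like cells (24.7 CPM in the mutant, 24.1 CPM in the control) in fibroblast-like cells, at 6.48 CPM in the mutant and 9.63 CPM in the control, and in choroid plexus epithelium-like cells, at 2.69 CPM in the mutant and 2.71 CPM in the control.

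Of the BAG genes, Bag3, which links Hsp70 to Hspb8, was highest in fibroblast-like cells with 58.3 CPM in the mutant and 63.8 CPM in the control, and next in endothelial-like cells with 42.8 CPM in the mutant and 43.8 CPM in the control, whose intervals overlap those of fibroblast-like cells. Microglia-like cells held 16.9 CPM in the mutant and 17.1 CPM in the control. Bag1, an anti-apoptotic exchange factor, was at 153 CPM in mutant and 142 CPM in control choroid plexus epithelium-like cells and lowest in astrocyte-like cells, at 20.4 CPM in the mutant and 31.9 CPM in the control, against 109 CPM in mutant and 85.9 CPM in control microglia-like cells.

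Each class was then set against microglia-like cells of the same library. A member counted as higher or lower when the ratio of CPM was at least 1.5 or at most its inverse, the 95% interval excluded 1 and the same held in both libraries, among members with at least 50 UMIs. In BAM-like cells 7 of 69 members were higher and 7 lower, beside 9.31% higher and 10.6% lower over all genes measured. In endothelial-like cells 9 of 71 were higher and 8 lower, beside 17.1% and 13.1% of all genes. In fibroblast-like cells 26 of 72 were higher (36.1%) and 6 lower (8.33%), beside 24.8% higher and 19% lower over all genes. In astrocyte-like cells 11 of 70 were higher and 18 lower (25.7%), beside 27.3% higher and 25.4% lower over all genes, so the share of higher members lay below the share over all genes. Choroid plexus epithelium-like cells had 23 of 73 members higher (31.5%) and 24 lower (32.9%), beside 22.2% higher and 55.2% lower over all genes.

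Transthyretin alone took 29.5% of the UMIs of mutant and 30.5% of those of control choroid plexus epithelium-like cells, which lowers the CPM of every other gene there. The median of all genes against microglia-like cells was -0.82 in the mutant and -0.88 in the control on the log2 scale, whereas the median member stood at 0.05 in the mutant and -0.10 in the control. With TMM scaling, which adjusts for such dominant genes, 38 of 73 members were higher and 12 lower, beside 31.2% higher and 41.1% lower over all genes. TMM also moved the balance in endothelial-like cells, to 9 higher and 14 lower beside 12.9% higher and 18.7% lower over all genes, and in fibroblast-like cells, to 20 higher and 9 lower beside 19.8% higher and 27.2% lower over all genes. Choroid plexus epithelium-like cells were the compared class in which 15 of the 74 members (20.3%) had their highest level in both libraries, against 9.62% of all genes, and these 15 included Hspa4, Hspa5, Hspa8, Hspa9, Hspd1, Hspe1, Hsph1, Dnaja1 and Bag1. Summed over the 74 members, the level was 10864 CPM in mutant and 11412 CPM in control ependymal-like cells, 5847 CPM in mutant and 5820.2 CPM in control choroid plexus epithelium-like cells, 4322 CPM in mutant and 4272 CPM in control microglia-like cells, and 3564 CPM in mutant and 3515 CPM in control astrocyte-like cells.

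The second comparison was mutant against control within a class, by the same size rule. Few members met it. In microglia-like cells, the class with the most UMIs, 0 of 69 measured members were higher and 1 was lower, beside 2.31% higher and 4.57% lower over all genes. The 1 member was Dnajc5b, at 0.675 CPM in the mutant and 1.27 CPM in the control, which is under 10% of its level in fibroblast-like cells and rests on 22 UMIs in the mutant and 41 UMIs in the control. Choroid plexus epithelium-like cells had 0 of 66 members higher or lower (2.1% higher and 1.31% lower over all genes), and endothelial-like cells 0 of 26 (4.04% higher and 4.26% lower over all genes). The median member's log2 ratio was -0.01 in microglia-like, 0.03 in choroid plexus epithelium-like and -0.08 in endothelial-like cells, beside medians over all genes of -0.02, 0.05 and 0.01.

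Microglia-like cells had the narrowest intervals, and some members differed by less than the size rule with intervals that excluded 1. Those named here were picked after their values were seen, and all were higher in the mutant. Of the 69 measured members, 36 (52.2%) had a ratio below 1, beside 56.1% of all genes. How many members had such an interval, in either direction, is not given here. Hspa12a had 29.8 CPM in the mutant and 20.8 CPM in the control (mutant over control 1.43, 1.30 to 1.58). Bag1 had 109 CPM in the mutant and 85.9 CPM in the control (mutant over control 1.27, 1.21 to 1.34). Hsph1 had 18.3 CPM in the mutant and 14.2 CPM in the control (mutant over control 1.29, 1.14 to 1.46). Counting error does not include the difference between animals or between library preparations, which 1 library per genotype cannot give.

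BAM-like cells are the class that holds Mrc1, at 3886 CPM in the mutant and 5016 CPM in the control, against 11.9 CPM in mutant and 40.7 CPM in control microglia-like cells. In BAM-like cells 1 of 49 measured members was higher and 1 lower, beside 3.64% higher and 3.42% lower over all genes. The median member's log2 ratio was 0.07, beside 0.00 over all genes. Dnajc30, a mitochondrial DnaJ protein, had 31.3 CPM (20.5 to 45.9) in the mutant and 17.9 CPM (13.3 to 23.5) in the control (mutant over control 1.75, 1.05 to 2.86). Dnajc16, an ER DnaJ protein, had 13.2 CPM (6.61 to 23.7) in the mutant and 26.0 CPM (20.4 to 32.6) in the control (mutant over control 0.51, 0.24 to 0.97), from 11 UMIs in the mutant. Neither is among the heat-inducible members. Hspa1a stood at a ratio of 0.93 (0.64 to 1.32), Hspa1b at 1.41 (0.98 to 2.0), Dnajb1 at 1.07 (0.72 to 1.55) and Dnaja1 at 1.25 (1.03 to 1.52), none past the rule. Cells with a UMI of the MHC class II gene H2-Ab1 made up 24 of 95 mutant and 34 of 255 control BAM-like cells. Within those cells, a split chosen after the data were seen, Hspa1b had 78.2 CPM in the mutant and 28.8 CPM in the control, from 20 UMIs in the mutant and 25 UMIs in the control, and in the remaining cells 47.0 CPM in the mutant and 45.0 CPM in the control. Hspa1a had a ratio of 1.18 (0.64 to 2.08) in cells with an H2-Ab1 UMI and 0.81 (0.50 to 1.27) in the rest.

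Fibroblast-like cells had 3 of 55 measured members higher (5.45%) and 2 lower (3.64%), beside 5.69% higher and 4.89% lower over all genes. The median over members on the log2 scale was 0.08, beside 0.04 over all genes. Hspb8 had 62.9 CPM (52.8 to 74.4) in the mutant and 31.3 CPM (20.4 to 45.9) in the control (mutant over control 2.01, 1.31 to 3.19). Dnajc5b, a cysteine string protein related to the synaptic vesicle co-chaperone Dnajc5, had 56.9 CPM (47.3 to 67.9) in the mutant and 27.7 CPM (17.6 to 41.6) in the control (mutant over control 2.06, 1.31 to 3.36). Dnajc21, a ribosome biogenesis factor, had 40.3 CPM in the mutant and 24.1 CPM in the control (mutant over control 1.67, 1.02 to 2.87). Lower were Dnajc6, with 17.6 CPM (12.4 to 24.1) in the mutant and 39.7 CPM (27.4 to 55.8) in the control (mutant over control 0.44, 0.27 to 0.73), and the ribosome-associated Dnajc2, with 28.2 CPM in the mutant and 44.5 CPM in the control (mutant over control 0.63, 0.41 to 0.98).

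The 2 libraries held unlike fibroblast-like cells. The 160 mutant cells included 121 with a Slc47a1 UMI and the 71 control cells 37, Slc6a13 stood at 128 CPM in the mutant and 537 CPM in the control, and Col1a1 at 6766 CPM in the mutant and 1969.8 CPM in the control. Pericyte markers summed to 394 CPM in the mutant and 2348 CPM in the control over a list of 8, of which 6 were detected in the mutant and 7 in the control, with Higd1b at 0 in both. Dnajc5b was found in cells with a Slc47a1 UMI, at 67.1 CPM in the mutant and 42.3 CPM in the control, and had 0 UMIs in the 39 mutant and 34 control cells without one. Dnajc6 had 1 UMI in each library in cells with Slc47a1, and in cells without it stood at 113 CPM in the mutant and 112 CPM in the control (mutant over control 1.01, 0.61 to 1.67). Hspb8 in cells with Slc47a1 had 70.9 CPM in the mutant and 46.0 CPM in the control (mutant over control 1.54, 1.0 to 2.47). Dnajc21 had a ratio of 2.08 (1.07 to 4.52) in cells with Slc47a1 and 1.48 (0.64 to 3.63) in cells without it, and Dnajc2 had 0.72 (0.44 to 1.23) with it and 0.31 (0.088 to 0.92) without it, each in the same direction in both subsets. The split by Slc47a1 was chosen after the data were seen.

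Astrocyte-like cells had 1 of 59 measured members higher and 1 lower, beside 2.86% higher and 1.83% lower over all genes. The median log2 ratio was 0.01 over members and 0.02 over all genes. Bag1 had 20.4 CPM (14.2 to 28.4) in the mutant and 31.9 CPM (27.6 to 36.7) in the control (mutant over control 0.64, 0.43 to 0.92). Dnajc25 had 18.7 CPM in the mutant and 11.2 CPM in the control (mutant over control 1.67, 1.06 to 2.57). Without a cap on the mitochondrial share neither met the rule.

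**Figure D4:**
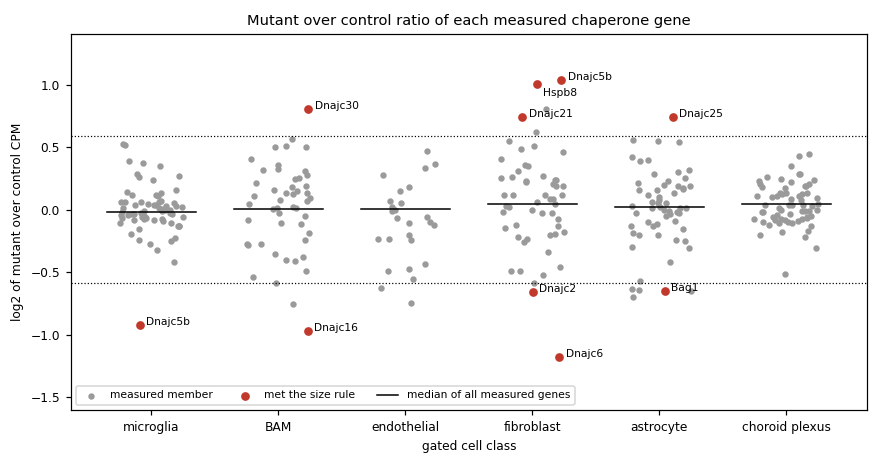
log2 of the mutant over control CPM of each measured member, 1 point per member, in 6 cell classes, with points that met the size rule in red and named. Dotted lines mark a ratio of 1.5 and its inverse, and the black bar is the median over all measured genes of the class, computed with 1 CPM added. Red points number 5 in fibroblast-like cells, 2 in BAM-like, 2 in astrocyte-like and 1 in microglia-like cells.

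The 11 heat-inducible members (Hspa1a, Hspa1b, Hspa8, Hsph1, Hspb1, Hspd1, Hspe1, Dnajb1, Dnaja1, Dnajb4 and Bag3) were also summed. None of those measured, from 5 in endothelial-like to 11 in microglia-like cells, met the size rule between genotypes. Over all genes, 2.31% were higher and 4.57% lower in microglia-like cells, and 4.04% higher and 4.26% lower in endothelial-like cells. With so few genes listed, finding none is near those shares. Their sum in microglia-like cells was 1033 CPM in the mutant and 1040.1 CPM in the control (mutant over control 0.99, 0.98 to 1.01). Choroid plexus epithelium-like cells had 2373 CPM in the mutant and 2363 CPM in the control (mutant over control 1.0, 0.99 to 1.02). The ratio was 1.12 in BAM-like cells (1407 CPM in the mutant, 1254 CPM in the control, interval 1.05 to 1.20) and 1.12 in fibroblast-like cells (1961 CPM in the mutant, 1752 CPM in the control, interval 1.05 to 1.19). Endothelial-like cells stood at 0.95 (0.88 to 1.03) and astrocyte-like cells at 1.03 (0.97 to 1.08). The sum in ependymal-like cells, the highest of any class, was 3824 CPM in the mutant and 4201 CPM in the control. Hspa8 and, in endothelial-like cells, Hspb1 made up the largest share of these sums.

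Immediate early genes, which cells switch on within minutes of stimulation or dissociation, gave more lower than higher genes in microglia-like, BAM-like, endothelial-like and fibroblast-like cells. In microglia-like cells 5 of 20 measured genes were lower and 0 higher, beside 4.57% lower and 2.31% higher over all genes, and the sum had a ratio of 0.83 (0.82 to 0.85). In BAM-like cells 8 of 17 were lower and 0 higher, beside 3.42% lower and 3.64% higher over all genes, with a ratio of 0.72 (0.68 to 0.76). Fos had 155 CPM in mutant and 258 CPM in control BAM-like cells, and Egr1 15.7 CPM in the mutant and 41.4 CPM in the control. Endothelial-like cells had 2 of 12 lower and 0 higher (4.26% lower and 4.04% higher over all genes) and a summed ratio of 0.83 (0.77 to 0.89). Astrocyte-like cells had 1 of 8 lower and 1 higher (1.83% lower and 2.86% higher over all genes) and a summed ratio of 0.92 (0.83 to 1.02). Fibroblast-like cells had 9 of 16 lower and 2 higher, beside 4.89% lower and 5.69% higher over all genes, with Jun among the higher genes at 96.2 CPM in the mutant and 50.6 CPM in the control. Choroid plexus epithelium-like cells had 0 lower and 1 higher of 12, beside 1.31% lower and 2.1% higher over all genes, and a summed ratio of 1.0 (0.96 to 1.05). The heat-inducible members and the immediate early genes therefore had summed ratios on different sides of 1 in BAM-like and fibroblast-like cells. Their part in the member ratios was not tested.

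**Figure D5:**
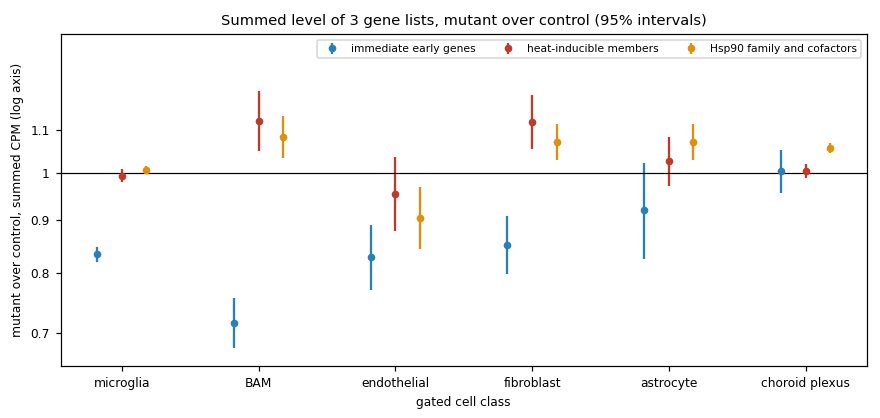
Mutant over control ratio of summed CPM, on a log axis, for the immediate early genes, the heat-inducible members and the Hsp90 family with its cofactors in 6 cell classes, with 95% intervals that cover counting error. Immediate early genes lie at 0.83 in microglia-like and 0.72 in BAM-like cells, while the heat-inducible members lie between 0.95 and 1.12 in all 6 classes.

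Other protein quality lists were close to even in microglia-like cells, where 2.31% of all genes were higher and 4.57% lower. In microglia-like cells the Hsp90 family with its cofactors had 0 of 20 genes higher or lower and a summed ratio of 1.01 (0.997 to 1.01), the TRiC chaperonin with prefoldin 0 of 14 and a ratio of 0.98 (0.97 to 0.999), ER folding and unfolded protein response genes 0 of 22 and a ratio of 0.96 (0.95 to 0.97), and mitochondrial proteostasis genes 0 of 12 and a ratio of 0.96 (0.94 to 0.98). In BAM-like cells these lists had 0 of 19, 0 of 14, 0 of 22 and 1 of 12 genes past the rule. Over all genes of that class, 3.64% were higher and 3.42% lower. The 1 gene was Clpb, a mitochondrial disaggregase, at 9.64 CPM in the mutant and 22.1 CPM in the control. Endothelial-like cells had lower sums in the mutant for the Hsp90 list, at 0.90 (0.84 to 0.97), and the TRiC list, at 0.88 (0.80 to 0.98). In fibroblast-like cells the Hsp90 cofactors Fkbp5 (126 CPM in the mutant, 79.5 CPM in the control) and Chordc1 (59.7 CPM in the mutant, 39.7 CPM in the control) were higher, and in endothelial-like cells Cacybp was, at 107.9 CPM in the mutant and 63.5 CPM in the control. Of 22 ER genes in fibroblast-like cells 1 was higher and 2 were lower, with a summed ratio of 0.99 (0.95 to 1.03). Over all genes of that class, 5.69% were higher and 4.89% lower. The BiP exchange factor Sil1 was higher, at 76.8 CPM in the mutant and 43.3 CPM in the control, while the stress gene Ddit3 was lower, at 27.3 CPM in the mutant and 45.8 CPM in the control. Eif2ak3, the ER stress kinase PERK, was also lower, at 25.5 CPM in the mutant and 40.9 CPM in the control.

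The ubiquitin precursor Ubb, a heat-inducible gene outside the naming rule, met the size rule in 5 of the 6 compared classes, astrocyte-like cells being the exception. It was lower in the mutant in microglia-like cells (84.2 CPM, against 143 CPM in the control), BAM-like cells (158 CPM, against 262 CPM), endothelial-like cells (136 CPM, against 210.2 CPM), fibroblast-like cells (176 CPM, against 281 CPM) and choroid plexus epithelium-like cells (223 CPM, against 357 CPM). The ratios ran from 0.59 to 0.65. The whole list of ubiquitin precursors and proteasome regulators had 1 of 12 genes lower and 0 higher in microglia-like cells. Over all genes of that class, 4.57% were lower and 2.31% higher. The summed ratio of the list was 0.97 (0.96 to 0.98). With 1 library per genotype, genotype and library cannot be told apart for Ubb or for any member.

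In microglia-like cells the heat-inducible sum also differed between bands of the mitochondrial share, by which barcodes were filtered. Scaled to 1000000 non-mitochondrial UMIs, the sum was 1029 in the mutant and 975 in the control at a mitochondrial share of up to 2.5%, 1121 in the mutant and 1134 in the control at 2.5% to 5%, 893.5 in the mutant and 1032 in the control at 5% to 10%, and 620.5 in the mutant and 752 in the control at 10% to 20%, in 213 mutant and 285 control cells that the cap left out. Median depth also differed, at 8702 UMIs per cell in the mutant and 8821 in the control at 2.5% to 5%, 2863 in the mutant and 5995 in the control at 5% to 10%, and 2107 in the mutant and 2119 in the control at 10% to 20%, and its part was not tested. The 13 mitochondrially encoded genes had a summed ratio of 0.929 (0.926 to 0.932) in microglia-like cells. In choroid plexus epithelium-like cells the heat-inducible sum was 2776 in the mutant and 2525 in the control at 2.5% to 5%. It was 2512 in the mutant and 2516 in the control at 5% to 10%, and 2465 in the mutant and 2388 in the control at 10% to 20%. Above 20% it was 2277 in the mutant and 2130 in the control, from 44 mutant and 46 control cells. In fibroblast-like cells the sum did not move in a single direction over the bands. It was 1623 in the mutant and 1222 in the control at 2.5% to 5%, and 2294 in the mutant and 2053 in the control at 5% to 10%. At 10% to 20% it was 2059 in the mutant and 2307 in the control, and above 20% it was 1295 in the mutant and 1403 in the control. The control values rested on 17 cells at 2.5% to 5%, 30 cells at 10% to 20% and 6 cells above 20%.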

How the data were processed

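UMI counts per gene and barcode were deposited by the authors for 1 mutant and 1 control library. They were made with Cell Ranger 7.1.0, per the file headers, from a Chromium Next GEM 3′ 3.1 kit and the builds GRCm38.p6 and mm10, per the labels' protocols and the submitters' processing notes. Whether introns were counted or free RNA corrected is not given in the sources used here.

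From these counts, barcodes with at least 500 genes, at most 10% mitochondrial UMIs and no doublet call (Scrublet in scanpy 1.11.5, Python 3.11.15) were kept, 6123 in the mutant and 5609 in the control. The doublet caller removed 2.52% of barcodes in the mutant and 2.62% in the control. A barcode took the class with the best score over 8 markers if at least 4 were detected and the next score was at most 0.5 of the best, which gated 5462 barcodes in the mutant and 5190 in the control. The gate's limits were set on marker counts once the files could be read. Monocyte, neuron, erythroid, neutrophil and T or NK cell lists were gated alike and gave no class of 50 cells in both libraries.

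For each class of each library, UMIs were added up and scaled to CPM. Poisson, conditional ratio and Clopper-Pearson intervals are exact at 95% (scipy 1.17.1) and cover counting error only, and UMIs of 1 cell are not independent. With 1 library per genotype there is no test. Median log2 ratios were computed with 1 CPM added. The size rule (at least 50 UMIs, ratio of at least 1.5 or its inverse, interval excluding 1) was run over all genes for the background shares. It was checked on simulated independent Poisson counts only, which hold no variation between cells, animals or libraries, so its behaviour under such variation was not tested. The class totals behind these values ran from 456675 UMIs (control endothelial-like cells) to 32599994 UMIs (mutant microglia-like cells).

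The alternatives were TMM scaling (edgeR 4.0.16, R 4.3.3), no mitochondrial cap, doublets kept, a gate of 5 markers, equal weight per cell, at least 200 UMIs per gene, and at least 1500 genes per barcode. A gate with a next score of up to 0.67 was added after seeing the data. Named genes were the heat-inducible members with Hspa5, Hspa9, Hspb8 and Hsf1, every member past the size rule between genotypes with at least 20 CPM in a library, the 3 highest and 3 lowest members per class against microglia-like cells, the 5 leading members of microglia-like cells, and up to 4 genes of a list past the rule. Dnajc5b in microglia-like cells, members highest in ependymal-like and oligodendrocyte-like cells, and members near the size rule were named after their values were seen. Members and lists were chosen with earlier results of these data known. All 74 members matched the GENCODE M21 annotation. Promoters came from RefSeq, where 60 members matched by symbol. Values of 1 member are not reported here.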

Additional observations from a re-analysis of the deposited data

Results flagged for a closer look

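Dnajc5b was higher in the mutant in 1 class and lower in another. Its mutant over control ratio was 2.06 in fibroblast-like cells, from 123 UMIs in 41 mutant cells and 23 UMIs in 12 control cells, and 0.529 in microglia-like cells, from 22 UMIs in the mutant and 41 UMIs in the control. The difference between the classes was not tested. The microglia-like level was under 10% of the fibroblast-like level in both libraries, and 1 cell held 18.2% of the class's Dnajc5b UMIs in the mutant and 1 cell 17.1% in the control. The microglia-like difference no longer met the size rule in 3 of 8 alternatives (doublets kept, at least 200 UMIs per gene, the looser gate), and its ratio ran from 0.508 to 0.842 over the alternatives.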

How the results depend on the processing

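No paired analysis was possible because the labels give no replicate numbers and each genotype is 1 library, and for the same reason no replicate could be left out. Members past the size rule between genotypes numbered 1 in microglia-like, 2 in BAM-like, 0 in endothelial-like, 5 in fibroblast-like, 2 in astrocyte-like and 0 in choroid plexus epithelium-like cells. Without a mitochondrial cap the count was 1 in endothelial-like and 0 in astrocyte-like cells. With doublets kept it was 2 in microglia-like cells. A gate of 5 markers gave 1 in endothelial-like and 8 in fibroblast-like cells. Equal weight per cell gave 6 in BAM-like, 3 in endothelial-like, 10 in fibroblast-like, 4 in astrocyte-like and 1 in choroid plexus epithelium-like cells. The interval used there was that of the summed counts, rescaled to the equal-weight ratio, so it does not describe the error of that ratio. At least 200 UMIs per gene gave 0 in microglia-like, BAM-like and fibroblast-like cells and 1 in astrocyte-like cells, fewer genes being measured. At least 1500 genes per barcode gave 2 in endothelial-like cells. The looser gate, chosen after seeing the data, gave 2 in microglia-like and 1 each in BAM-like, endothelial-like and astrocyte-like cells. Apart from the minimum of 200 UMIs, the cause of these shifts was not tested. Shares over all genes are not given here for the alternatives, so these counts cannot be set beside a background.

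The summed heat-inducible ratio was 1.01 in microglia-like and 0.975 in choroid plexus epithelium-like cells with TMM, 1.05 in fibroblast-like and 1.03 in choroid plexus epithelium-like cells without a mitochondrial cap, and 0.978 in microglia-like cells with equal weight per cell. Over 8 alternatives, Dnajc5b (ratios 1.56 to 2.28), Dnajc6 (0.338 to 0.501) and Hspb8 (1.53 to 2.59) in fibroblast-like cells and Dnajc30 (1.69 to 1.99) in BAM-like cells met the rule in 7, the minimum of 200 UMIs being the exception. Dnajc21 in fibroblast-like cells met it in 3. Total counts of members past the rule against microglia-like cells stayed within 1.5 times of those reported, but TMM moved the split by over 1.5 times in choroid plexus epithelium-like cells (38 higher and 12 lower, against 23 and 24) and in endothelial-like cells (14 lower, against 8), and fibroblast-like cells had 9 lower, against 6. Depth limits endothelial-like cells most, where 26 members could be measured between genotypes.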

Other observations

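Ependymal-like cells, which were too few for a genotype comparison, had the highest summed chaperone level of the 8 classes. Of 71 members measured there against microglia-like cells under TMM scaling, 29 were higher and 14 lower in both libraries, beside 22.5% higher and 33.5% lower over all genes. The median member stood at 0.76 in the mutant and 0.74 in the control on the log2 scale against microglia-like cells, beside medians over all genes of -0.08 in the mutant and -0.10 in the control.

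Among BAM-like cells with an H2-Ab1 UMI, Dnajb1, the inducible Hsp40, had 82.1 CPM in the mutant and 43.8 CPM in the control, from 21 UMIs in the mutant and 38 UMIs in the control. In BAM-like cells without one it had 27.8 CPM in the mutant and 40.9 CPM in the control. Hspa1a in the same 2 subsets had 66.5 CPM in the mutant and 56.5 CPM in the control with an H2-Ab1 UMI, and 41.8 CPM in the mutant and 51.5 CPM in the control without one. The split by H2-Ab1 was chosen after the data were seen, and its part in the Dnajb1 levels was not tested.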
